A study of Homo sapiens with 15 samples.

Results

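The comparison described here sets the transcript changes caused by WP1130, an inhibitor of several deubiquitinases including USP9X, against those caused by knockdown of the transcription factor ERG. It asks whether the inhibitor acts on transcripts as loss of ERG does. For every gene the effect of the ERG siRNAs was subtracted from the effect of WP1130. All 12744 genes with a detected probe and 1 gene symbol were kept, with no selection on the size of their effects. A probe had to be detected on at least 3 arrays, so a gene could enter through the 3 WP1130 arrays alone. These genes came from 23281 of 47322 probes on each of 15 Illumina expression BeadChips, which were all the arrays of the series.

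RNA came from VCaP, an established line of human prostate cancer cells with a TMPRSS2-ERG fusion. There were 3 arrays in each of 5 groups: a non-targeting siRNA (NT), ERG siRNA 1 (siERG1), ERG siRNA 2 (siERG2), the solvent DMSO, and WP1130. Knockdown lasted 72 h and WP1130 treatment 24 h. The sources used here give neither a dose of WP1130 nor times for the NT and DMSO groups. The effect of WP1130 is the difference from DMSO and the effect of the siRNAs is the mean of siERG1 and siERG2 minus NT. The 2 arms share no array, but they differ in duration and in the kind of control, and these differences cannot be told apart from the agents. All results are from 1 cell line, and no label states whether replicates were grown separately, so p-values reflect only the spread among these arrays, possibly a technical one.

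ERG is an ETS-family transcription factor that binds DNA sites built around a GGAA core. In many prostate cancers the androgen-driven TMPRSS2 promoter is joined to ERG, so that the gene is switched on in luminal cells, where ERG protein alters the output of the androgen receptor program. Deubiquitinases remove ubiquitin from proteins and so spare many of them from the proteasome; inhibitors of these enzymes let ubiquitinated proteins build up and are known to evoke the heat shock response, the oxidative stress response and immediate early genes.

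Promoter windows of the leading genes of the layout are shown so that the genes can be read beside the values below. Each is a RefSeq window of 300 bases around a gene start on GRCh38.p14, most of it upstream. The first set holds the first 2 genes with a RefSeq window of each class in which both arms moved a gene, and capitals mark GGAA or its reverse complement TTCC. BAMBI (chr10:28677271-28677570, plus strand) and TSC22D3 (chrX:107775939-107776238, minus strand) rose in both arms. FZD4 (chr11:86955346-86955645, minus) and KCNS3 (chr2:17877597-17877896, plus) fell in both. ANXA1 (chr9:73151615-73151914, plus) and GUCA2A (chr1:42164696-42164995, minus) rose with WP1130 and fell with the siRNAs. ATOH1 (chr4:93828503-93828802, plus) and ENDOD1 (chr11:95089596-95089895, plus) did the opposite.
BAMBI: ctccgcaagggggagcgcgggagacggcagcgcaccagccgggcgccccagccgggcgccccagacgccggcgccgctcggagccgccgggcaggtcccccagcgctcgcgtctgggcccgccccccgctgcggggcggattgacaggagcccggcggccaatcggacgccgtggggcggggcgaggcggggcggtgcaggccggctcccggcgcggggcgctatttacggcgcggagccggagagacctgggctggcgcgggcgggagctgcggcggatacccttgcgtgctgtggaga
TSC22D3: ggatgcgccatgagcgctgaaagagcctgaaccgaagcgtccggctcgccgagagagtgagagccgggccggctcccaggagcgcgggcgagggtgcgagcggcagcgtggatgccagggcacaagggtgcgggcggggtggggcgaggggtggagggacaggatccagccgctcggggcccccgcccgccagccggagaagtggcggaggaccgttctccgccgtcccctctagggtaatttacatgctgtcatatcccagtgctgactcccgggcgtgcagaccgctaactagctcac
FZD4: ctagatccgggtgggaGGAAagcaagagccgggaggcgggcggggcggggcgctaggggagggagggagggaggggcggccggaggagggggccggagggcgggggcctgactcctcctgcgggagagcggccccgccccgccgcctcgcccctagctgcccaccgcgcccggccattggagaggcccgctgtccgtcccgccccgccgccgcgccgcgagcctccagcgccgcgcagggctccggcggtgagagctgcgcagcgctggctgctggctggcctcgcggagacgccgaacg
KCNS3: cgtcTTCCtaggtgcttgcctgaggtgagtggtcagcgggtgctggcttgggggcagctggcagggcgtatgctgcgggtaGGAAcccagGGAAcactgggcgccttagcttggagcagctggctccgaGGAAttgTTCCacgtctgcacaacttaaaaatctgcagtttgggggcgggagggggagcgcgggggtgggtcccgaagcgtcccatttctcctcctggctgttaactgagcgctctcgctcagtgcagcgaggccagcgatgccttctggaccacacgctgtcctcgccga
ANXA1: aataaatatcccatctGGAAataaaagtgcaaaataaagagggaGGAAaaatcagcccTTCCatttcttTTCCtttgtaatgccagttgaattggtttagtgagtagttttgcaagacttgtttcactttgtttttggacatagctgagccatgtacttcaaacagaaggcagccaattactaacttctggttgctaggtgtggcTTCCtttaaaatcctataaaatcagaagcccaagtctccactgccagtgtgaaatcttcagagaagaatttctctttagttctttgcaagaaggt
GUCA2A: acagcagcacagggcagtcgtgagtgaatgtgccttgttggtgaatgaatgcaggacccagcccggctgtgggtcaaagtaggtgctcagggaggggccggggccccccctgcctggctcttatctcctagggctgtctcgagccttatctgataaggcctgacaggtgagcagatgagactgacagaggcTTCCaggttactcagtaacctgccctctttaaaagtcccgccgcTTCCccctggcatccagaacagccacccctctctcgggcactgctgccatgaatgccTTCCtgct
ATOH1: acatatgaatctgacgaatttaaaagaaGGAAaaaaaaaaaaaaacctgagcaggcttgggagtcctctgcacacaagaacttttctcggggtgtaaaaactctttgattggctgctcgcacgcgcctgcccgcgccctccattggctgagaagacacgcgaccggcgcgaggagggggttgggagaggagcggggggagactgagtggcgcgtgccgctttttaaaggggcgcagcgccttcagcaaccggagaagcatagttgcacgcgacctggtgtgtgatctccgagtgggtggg
ENDOD1: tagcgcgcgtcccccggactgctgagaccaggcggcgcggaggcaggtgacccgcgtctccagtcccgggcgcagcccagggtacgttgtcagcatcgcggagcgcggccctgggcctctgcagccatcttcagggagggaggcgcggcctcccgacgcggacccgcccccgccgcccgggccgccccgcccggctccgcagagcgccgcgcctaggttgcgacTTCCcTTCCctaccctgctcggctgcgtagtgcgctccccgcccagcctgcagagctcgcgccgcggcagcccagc
The windows of BAMBI and TSC22D3 held 0 copies of the core, FZD4 and ATOH1 1 each, ENDOD1 2, GUCA2A 3, and KCNS3 and ANXA1 5 each. Such a short core is common: 95.5% of 27305 RefSeq windows held it, with a median of 3 copies, so these counts set no class apart.

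HSPA6 (chr1:161524290-161524589, plus strand) and HSPA1A (chr6:31815293-31815592, plus) are heat shock chaperone genes that rose with WP1130 alone. Capitals mark the heat shock element core GAANNTTC. Both these windows and the core GGAA were chosen after the values were seen.
HSPA6: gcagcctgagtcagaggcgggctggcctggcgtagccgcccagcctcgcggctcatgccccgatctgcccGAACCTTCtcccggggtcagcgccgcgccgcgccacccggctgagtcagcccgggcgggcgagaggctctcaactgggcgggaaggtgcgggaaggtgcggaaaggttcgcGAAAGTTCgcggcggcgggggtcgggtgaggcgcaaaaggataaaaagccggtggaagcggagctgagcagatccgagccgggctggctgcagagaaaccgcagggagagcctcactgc
HSPA1A: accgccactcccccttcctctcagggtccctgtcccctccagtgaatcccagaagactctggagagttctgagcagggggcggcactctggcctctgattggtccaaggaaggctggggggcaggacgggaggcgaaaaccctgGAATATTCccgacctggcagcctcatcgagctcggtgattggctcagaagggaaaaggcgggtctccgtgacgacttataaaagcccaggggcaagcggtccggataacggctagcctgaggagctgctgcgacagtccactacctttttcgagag
HSPA6 held 2 such cores and HSPA1A 1, against 6.87% of all windows with any. These chaperone genes do not stand for their class. Of the 1412 windows of genes that rose with WP1130 alone, 6.52% held the core. CRYAB and HMOX1 are named only.

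The arrays were of even quality, but the WP1130 arrays were dimmer. Mean raw intensity was 413 to 427 in the other 4 groups and 311 ± 5.24 (SD, n = 3) with WP1130, which is 74.6% of the DMSO mean. Each array detected 18460 to 21220 probes, and replicates correlated at 0.993 to 0.997 across genes. Of 11 luminal epithelium markers 9 passed the filter and were detected on all arrays, among them KLK2, SLC45A3 and HOXB13, while 0 of 4 basal markers passed. A few genes used as markers of fibroblasts (4 of 10), blood cells (3 of 7) and endothelium (1 of 5) passed, 2, 1 and 0 of them on all arrays. In these bulk samples, fewer cells of a type and less RNA per cell cannot be told apart. Levels below are normalised log2 intensities and changes are log2 differences ± SE.

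WP1130 moved far more genes than ERG knockdown. With WP1130 2790 genes rose (21.9% of those tested) and 4729 fell (37.1%). With the ERG siRNAs 1359 rose (10.7%) and 1221 fell (9.58%), at a Benjamini-Hochberg adjusted p under 0.05 in limma. The difference of effects itself passed for 6466 genes: it was higher with WP1130 for 2521 (19.8%) and lower for 3945 (31%). Both arms called 1746 genes, out of 7519 called with WP1130 and 2580 called with the siRNAs. Of the 1746 genes, 357 rose in both and 600 fell in both. A further 237 rose with WP1130 and fell with the siRNAs, and 552 did the reverse.

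A gene was said to move in 1 arm only if the other arm did not pass and the difference of effects did. By this rule 1798 genes rose and 2696 fell with WP1130, and 311 rose and 202 fell with the ERG siRNAs. A further 1279 genes passed with WP1130 and 321 with the siRNAs, but their difference did not pass, so they were left undecided. For 275 genes only the difference passed, and 4116 passed no test. Of the genes that moved alike, the effects differed in size for 165 of the 357 rises and 230 of the 600 falls. WP1130 had the larger effect in 247 of the rises and 443 of the falls.

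The number of genes that rise or fall with WP1130 depends on how the dim WP1130 arrays are scaled. The median effect of WP1130 over all genes was -0.12 with quantile normalization, -0.46 with median scaling, -0.65 with no scaling and 0.05 when arrays were centred on the genes tested. Among genes whose difference of effects passed, the share that was higher with WP1130 was 39% in the main setting, 15.1% with median scaling, 10.6% with no scaling and 54.4% with centring. Changes given below are those of the main setting, and lists whose direction turns under another scaling are named.

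**Figure D1:**
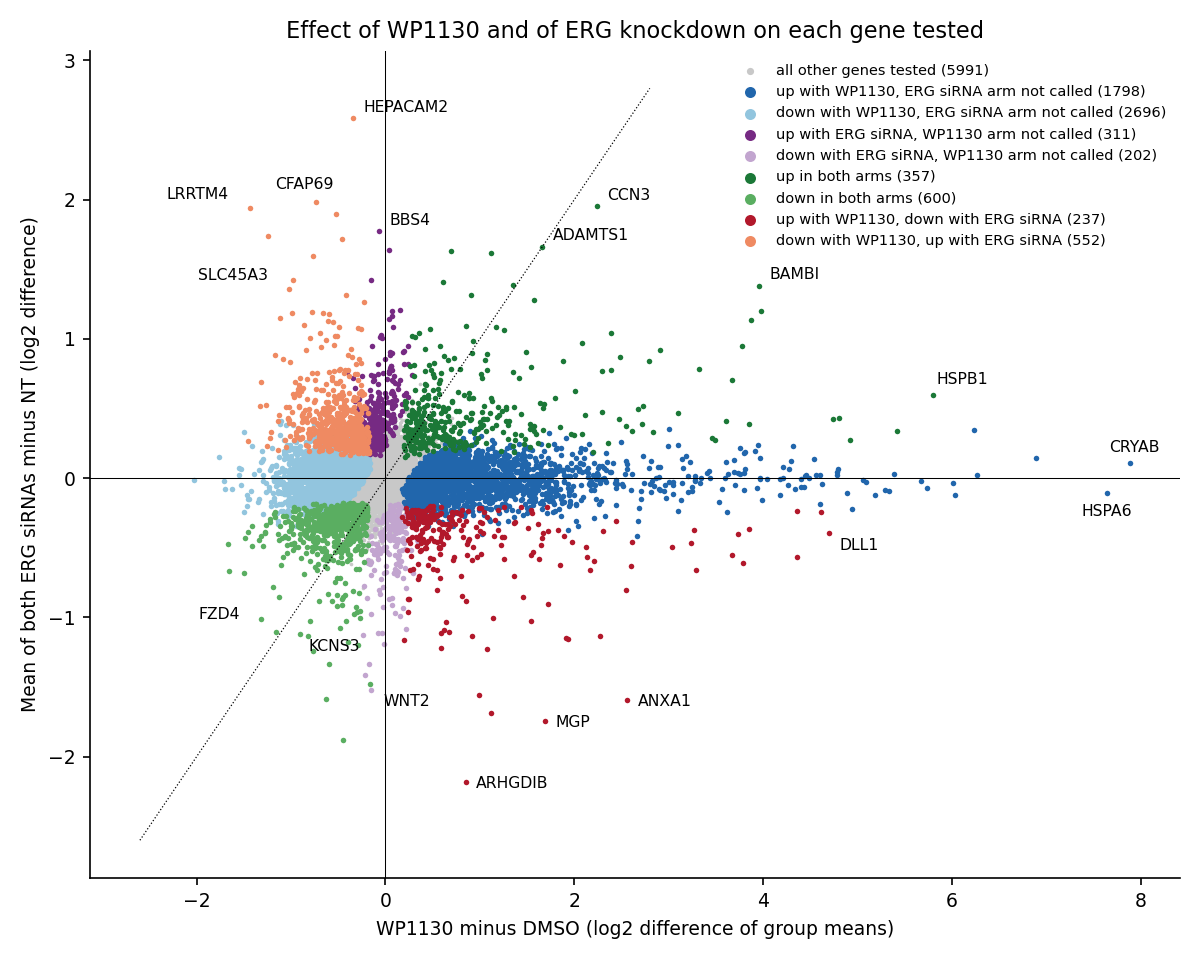
Effect of WP1130 (horizontal axis, log2 difference from DMSO) against the effect of the ERG siRNAs (vertical axis, log2 difference from NT) for each of the 12744 genes, coloured by class; the dotted line marks equal effects. Most called genes lie along the horizontal axis, CCN3 and ADAMTS1 lie near the dotted line, and ANXA1, MGP, LRRTM4 and SLC45A3 lie in the quadrants of opposite change.

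The 2 control groups themselves differed at many genes. Between DMSO and NT 1671 genes were higher (13.1%) and 1481 lower (11.6%) with DMSO. Since the effect of the siRNAs shares the NT arrays with this contrast and the effect of WP1130 shares the DMSO arrays, a control difference that passed is given beside the named gene or its list, and its part in a result was not tested. The control differences were not spread evenly over the classes. Among the 552 genes that fell with WP1130 and rose with the siRNAs, DMSO was above NT for 255 (46.2%) and below for 28. Among the 237 that did the reverse, DMSO was below NT for 98 (41.4%) and above for 25. DMSO was above NT for 117 (32.8%) of the 357 shared rises and below for 28. It was below NT for 147 (24.5%) of the 600 shared falls and above for 38. Counting only genes whose controls did not differ left 627 of 957 genes moved alike and 383 of 789 moved oppositely. That count left 273 of 513 genes moved with the ERG siRNAs only.

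ERG itself fell in both arms. Its log2 intensity was 6.13, 6.04 and 5.84 with NT, 5.0, 5.76 and 5.12 with siERG1, 5.57, 4.81 and 5.29 with siERG2, 6.30, 6.25 and 6.35 with DMSO, and 5.69, 5.73 and 5.87 with WP1130. All treated arrays lay below their own controls, though the probe was dim throughout. ERG fell by 0.74 ± 0.16 with the siRNAs (limma adjusted p = 0.00383) and by 0.54 ± 0.18 with WP1130 (adjusted p = 0.0203). The difference of 0.20 ± 0.24 did not pass (adjusted p = 0.514), with a 95% confidence interval from -0.32 to 0.72. The WP1130 call did not hold in the authors' processed data (-0.73, adjusted p = 0.0853) or with centring on the genes tested (-0.29, adjusted p = 0.189). It was also lost when 1 array was left out, namely DMSO replicate 3 (adjusted p = 0.0551), or replicate 1 or 2 of WP1130 (adjusted p = 0.0568 and 0.051).

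TMPRSS2, the androgen-induced protease gene whose promoter drives the fusion, moved in opposite directions. It stood at 11.12, 11.07 and 10.91 with NT, 12.34, 12.33 and 12.13 with siERG1, 12.49, 12.44 and 12.37 with siERG2, 10.97, 10.83 and 10.83 with DMSO, and 10.59, 10.37 and 10.41 with WP1130. Every siRNA array was above every other array, and every WP1130 array was below the rest. TMPRSS2 rose by 1.32 ± 0.07 with the siRNAs and fell by 0.42 ± 0.09 with WP1130, a difference of -1.74 ± 0.11 (adjusted p = 7.17e-09), and its controls did not differ by the test (-0.15, adjusted p = 0.225). Whether its probe also reads the fusion transcript was not tested.

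Of 5 genes for deubiquitinases that WP1130 is known to inhibit, 4 passed with the inhibitor and 0 with the siRNAs. Over all genes 21.9% rose and 37.1% fell with WP1130, and 10.7% rose and 9.58% fell with the siRNAs. Whether these 5 genes pass more often than other genes was not tested. USP14, of the proteasome, fell by 0.75 ± 0.10 with WP1130 and USP9X by 0.38 ± 0.10 (adjusted p = 1.00e-05 and 0.00331). A second USP9X probe fell by 1.26. UCHL1 rose by 1.07 ± 0.08. For these 3 genes the effect of the siRNAs lay between 0.01 and 0.03 and the difference passed. USP5 was at -0.26 ± 0.09 with WP1130 and 0.00 with the siRNAs, and the difference did not pass (adjusted p = 0.0805). UCHL5 passed in neither arm, and its difference was 0.07 ± 0.12.

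CCN3, a matricellular protein, rose in both arms. It stood at 7.17, 7.07 and 7.48 with NT, 8.93, 8.88 and 8.91 with siERG1, 9.53, 9.40 and 9.54 with siERG2, 7.51, 7.60 and 7.67 with DMSO and 9.57, 10.00 and 9.92 with WP1130. All 9 treated arrays were above all 6 control arrays, with the siERG1 arrays lowest among the treated. CCN3 rose by 2.24 ± 0.11 with WP1130 and 1.96 ± 0.10 with the siRNAs (limma adjusted p = 1.91e-10 and 4.05e-09), and the difference of 0.28 ± 0.15 did not pass (adjusted p = 0.13). DMSO was above NT by 0.35 (adjusted p = 0.0347).

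ADAMTS1, a secreted protease that cleaves proteoglycans, rose by nearly equal amounts in both arms. It stood at 6.66, 6.86 and 7.09 with NT, 8.39 to 8.69 on the 6 siRNA arrays, 7.69, 7.56 and 7.71 with DMSO and 9.47, 9.22 and 9.26 with WP1130. Treated arrays lay above both sets of controls, but the DMSO arrays lay above the NT arrays (0.79, adjusted p = 7.18e-05). Both effects were 1.66, with a difference of 0.00 ± 0.14 and a confidence interval from -0.30 to 0.30. TSC22D3, a glucocorticoid-induced leucine zipper protein, rose by 1.35 ± 0.11 and 1.39 ± 0.09 with WP1130 and the siRNAs, a difference with an interval from -0.34 to 0.27; its other probe gave 0.55 and 0.84.

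For other shared rises the inhibitor had the larger effect. BAMBI, a decoy receptor of the TGF-beta family, rose by 3.96 ± 0.12 with WP1130 and 1.38 ± 0.11 with the siRNAs, a difference of 2.58 ± 0.16 (adjusted p = 4.83e-09). RASD1, a dexamethasone-induced Ras-related protein, rose by 3.98 and 1.20, and the trefoil factor TFF1 by 3.87 and 1.13, with differences of 2.77 and 2.73. NTN4, a secreted netrin, was the converse, with 1.12 against 1.62 and a difference of -0.50 ± 0.14 (adjusted p = 0.00727). The co-repressor TLE4 rose by 1.58 and 1.28. Second probes of NTN4 (0.05 and 0.29) and TLE4 (0.20 and 0.27) moved less. DMSO was above NT for BAMBI, RASD1, TFF1 and TLE4, by 0.55 to 0.75.

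Among genes that fell in both arms were the Wnt receptors FZD4 and FZD8. FZD4 stood at 8.96, 8.68 and 8.81 with NT, 7.69 to 8.06 with the siRNAs, 9.25, 9.20 and 9.23 with DMSO and 8.13, 7.87 and 7.72 with WP1130. Its treated arrays lay below all controls in both arms and overlapped each other. FZD4 fell by 1.32 ± 0.11 with WP1130 and by 1.01 ± 0.10 with the siRNAs, and FZD8 fell by 0.80 ± 0.13 and by 1.03 ± 0.11; the differences of -0.31 ± 0.15 and 0.23 ± 0.17 did not pass (adjusted p = 0.094 and 0.281). DMSO was above NT by 0.41 for FZD4, and the DMSO minus NT difference was -0.44 for FZD8.

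KCNS3, a modulatory subunit of voltage-gated potassium channels, stood at 7.73, 7.71 and 7.65 with NT, 6.45 to 6.83 with the siRNAs, 7.39, 7.46 and 7.41 with DMSO and 6.71, 6.39 and 6.43 with WP1130. Again both sets of treated arrays lay below both sets of controls. It fell by 0.91 ± 0.09 with WP1130 and by 1.12 ± 0.08 with the siRNAs, and a second probe fell by 0.67 and by 0.89. Its DMSO minus NT difference was -0.28. GALNT18, of the family that starts mucin-type glycosylation, fell by 1.16 and by 1.10, with an interval for the difference from -0.37 to 0.27. The lipocalin APOD fell by 0.82 and by 1.14, and the cation channel MCOLN2 fell by 1.19 and by 0.78; these differences passed (adjusted p = 0.0451 and 0.00109), and the DMSO minus NT difference of MCOLN2 was -0.53. SAMD13 fell by 1.13 and by 0.86. The endosomal motor KIF16B fell by 0.77 and by 1.24, but its second probe fell by 0.16 and by 1.22.

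**Figure D2:**
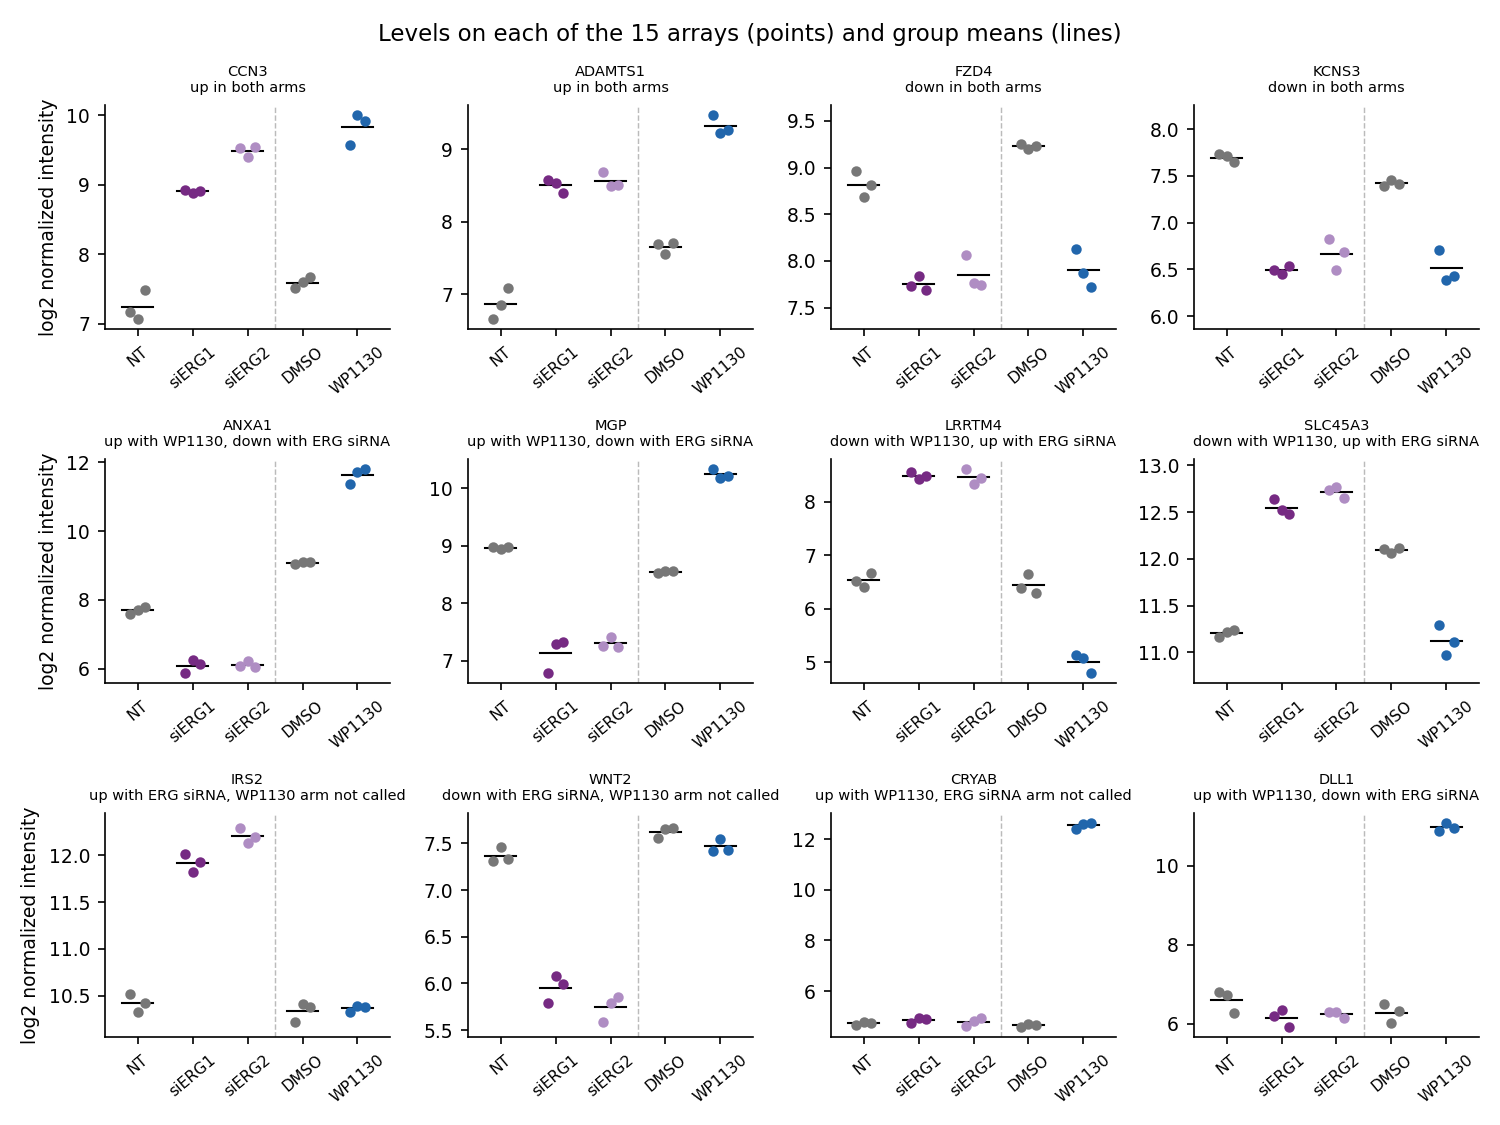
Normalised log2 intensity of 12 genes on each of the 15 arrays (points; lines are group means, n = 3), with the knockdown arm left and the inhibitor arm right of the dashed line. CCN3 and ADAMTS1 are higher and FZD4 and KCNS3 lower in both treated arms, ANXA1, MGP, LRRTM4 and SLC45A3 move in opposite directions, IRS2 and WNT2 move with the siRNAs, CRYAB and DLL1 are far higher with WP1130, and the controls of ANXA1 and SLC45A3 differ.

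Genes that rose with WP1130 and fell with the siRNAs included ANXA1, a phospholipid-binding protein that restrains inflammation. It stood at 7.59, 7.72 and 7.79 with NT, 5.88 to 6.26 with the siRNAs, 9.04, 9.09 and 9.10 with DMSO and 11.38, 11.73 and 11.80 with WP1130. No 2 of these sets of arrays overlapped, and DMSO lay well above NT (1.37, adjusted p = 7.71e-07). ANXA1 rose by 2.56 ± 0.11 with WP1130 and fell by 1.59 ± 0.10 with the siRNAs, a difference of 4.16 ± 0.15 (limma adjusted p = 4.62e-12).

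MGP, an inhibitor of matrix calcification, showed the same layout with nearer controls. It stood at 8.98, 8.95 and 8.97 with NT, 6.79 to 7.42 with the siRNAs, 8.52, 8.56 and 8.56 with DMSO and 10.33, 10.17 and 10.21 with WP1130. The siRNA arrays were lowest and the WP1130 arrays highest, with both controls between. MGP rose by 1.69 ± 0.11 and fell by 1.74 ± 0.10, and a second probe gave 1.90 and -1.73. Its DMSO minus NT difference was -0.42. GUCA2A (guanylin, a ligand of an intestinal guanylate cyclase) rose by 1.93 and fell by 1.15, and its controls differed by only 0.03. Alpha-fetoprotein, AFP, moved by 1.91 and -1.15, and PAPSS2, which makes the sulfate donor of sulfotransferases, by 1.12 and -1.69.

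Transcription factor genes also took part in this opposite class. ETS2, an ETS factor like ERG, stood at 7.36, 7.30 and 7.44 with NT, 6.18 to 6.49 with the siRNAs, 7.13, 7.21 and 7.15 with DMSO and 8.53, 8.82 and 8.75 with WP1130. Its siRNA arrays were the lowest and its WP1130 arrays the highest of all. ETS2 rose by 1.54 ± 0.09 with WP1130 and fell by 1.03 ± 0.08 with the siRNAs (difference 2.57 ± 0.12, adjusted p = 8.19e-11). EPAS1, a hypoxia-inducible factor, moved by 1.08 and -1.22, with DMSO above NT by 0.61. SIPA1L2, a regulator of Rap GTPases, moved by 2.27 and -1.13, with DMSO below NT (-0.92, adjusted p = 2.50e-05).

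The genes that fell with WP1130 and rose with the siRNAs included neural, secretory and prostate genes. LRRTM4, a synaptic adhesion protein, stood at 6.52, 6.41 and 6.66 with NT, 8.34 to 8.61 with the siRNAs, 6.38, 6.65 and 6.29 with DMSO and 5.13, 5.08 and 4.80 with WP1130. The 2 controls overlapped, the siRNA arrays lay above them and the WP1130 arrays below. It fell by 1.44 ± 0.11 with WP1130 and rose by 1.94 ± 0.10 with the siRNAs (difference -3.38 ± 0.15, limma adjusted p = 4.50e-11). ATOH1, which drives the formation of hair cells and gut secretory cells, rose by 1.74 ± 0.13 with the siRNAs; it was not detected on any WP1130 array and fell there at least 1.73-fold. Its DMSO arrays lay above NT by 0.54.

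SLC45A3, the prostate-restricted transporter prostein, stood at 11.16, 11.22 and 11.24 with NT, 12.48 to 12.77 with the siRNAs, 12.11, 12.06 and 12.12 with DMSO and 11.29, 10.97 and 11.11 with WP1130. The WP1130 arrays thus overlapped the NT arrays, and the DMSO arrays lay between NT and the siRNAs. SLC45A3 fell by 0.97 ± 0.08 with WP1130 and rose by 1.43 ± 0.07 with the siRNAs, and its controls differed by 0.89 (adjusted p = 1.90e-06). ENDOD1, an endonuclease-domain protein, moved by -1.11 and 1.15, the peptidase inhibitor PI15 by -1.02 and 1.36, the mitochondrial membrane protein GDAP1 by -1.17 and 0.89 and the bicarbonate transporter SLC4A4 by -0.87 and 1.10. In all 4 DMSO lay above NT, by 0.69 to 1.64. A second PI15 probe gave -0.56 and 0.40, and other GDAP1 probes gave -0.53 and -1.20 with WP1130. TRIM49D1, which has near-identical copies, moved by -0.98 and 1.19.

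The lowest differences of effects also included 3 genes with small falls in the inhibitor arm. HEPACAM2, an adhesion molecule, rose by 2.59 ± 0.12 with the siRNAs; with WP1130 it was not detected and lay at least 1.1-fold lower, and its arrays overlapped those of DMSO. The DMSO minus NT difference of HEPACAM2 was -0.92. CFAP69, a ciliary protein, fell by 0.73 and rose by 1.99, with DMSO above NT by 1.52. RLN1, the hormone relaxin, which has the near-identical copy RLN2, was not detected with NT or with WP1130. It was at least 2.61-fold higher with the siRNAs and at least 1.23-fold lower with WP1130, and its DMSO arrays lay above the NT arrays.

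The leading rises with WP1130 alone exceeded every other change named here. CRYAB, a small heat shock protein, stood at 4.58 to 4.95 on the 12 arrays of the other groups and at 12.41, 12.58 and 12.63 with WP1130. Only the WP1130 arrays were raised, and the probe was undetected on all DMSO arrays, which makes the rise at least 196-fold. HSPA6, the strictly stress-inducible member of its chaperone family, rose at least 174-fold and heme oxygenase HMOX1 at least 85.2-fold. Their effects with the siRNAs were 0.11, -0.11 and 0.14 and did not pass (adjusted p = 0.355, 0.516 and 0.416).

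HSPA1A, which shares near-identical sequence with HSPA1B, rose by 6.03 ± 0.14 with WP1130 against -0.12 ± 0.13 with the siRNAs. The stress transcription factor ATF3 rose by 6.26 ± 0.13 (second probe 1.62) against 0.02, and the stromelysin MMP10 by 6.24 ± 0.14 against 0.35 ± 0.12, which did not pass (adjusted p = 0.0584). The leading falls with WP1130 alone were smaller than these rises. D2HGDH, a mitochondrial dehydrogenase, fell by 2.02 ± 0.10, HILPDA, a lipid droplet protein, fell by 1.70 ± 0.08, and MARS2, the mitochondrial methionine tRNA synthetase, fell by 1.71 ± 0.09. The small RNA genes SNORA22 and SCARNA12 fell by 1.76 and by 1.63, and the zinc finger gene ZNF566 fell by 1.55. Second probes of MARS2 and ZNF566 fell by 0.13 and by 0.23. DMSO was above NT for SNORA22, SCARNA12 and MARS2, by 0.90, 0.48 and 0.34.

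IRS2, the adaptor of the insulin receptor, rose with the ERG siRNAs alone. It stood at 10.52, 10.33 and 10.42 with NT, 11.82 to 12.29 with the siRNAs, 10.22, 10.41 and 10.38 with DMSO and 10.33, 10.39 and 10.38 with WP1130. Only the siRNA arrays were raised, and the other 3 groups overlapped. IRS2 rose by 1.64 ± 0.07 with the siRNAs and its effect with WP1130 was 0.03 ± 0.08 (difference -1.61 ± 0.10, limma adjusted p = 6.38e-09). The membrane peptidase MME rose by 1.43 and the cytochrome CYP1B1 by 1.15, again with controls that did not differ by the test.

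BBS4, a subunit of the ciliary BBSome, showed another pattern. It stood at 7.45, 7.22 and 7.60 with NT, 9.13 to 9.26 with the siRNAs, 9.09, 9.06 and 9.03 with DMSO and 9.08, 9.01 and 8.90 with WP1130. The NT arrays stood alone below the other 4 groups. BBS4 was thus 1.77 ± 0.08 higher with the siRNAs than with NT, and DMSO was higher than NT by 1.64 (adjusted p = 2.91e-08). The prostaglandin dehydrogenase HPGD and the glucose transporter SLC2A12 were alike, with effects of 1.21 and 1.20 and control differences of 1.20 and 1.17.

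Falls with the siRNAs alone included WNT2, a Wnt ligand. It stood at 7.31, 7.46 and 7.33 with NT, 5.59 to 6.08 with the siRNAs, 7.56, 7.65 and 7.66 with DMSO and 7.42, 7.55 and 7.43 with WP1130. The siRNA arrays were lowest by a wide margin. WNT2 fell by 1.52 ± 0.08, against -0.15 ± 0.09 with WP1130 (difference 1.36 ± 0.12, adjusted p = 2.31e-07). TMEM158, a membrane protein induced by Ras signalling, fell by 1.33, the myosin MYH13 fell by 1.41, the adhesion receptor ADGRG6 fell by 1.19, the receptor ROR1 fell by 1.13 and the glutathione transferase GSTO2 fell by 1.11. Of these 5, the controls differed for GSTO2 (0.41, adjusted p = 0.0232). A second ROR1 probe fell by 1.13 and another was at 0.17.

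Androgen-induced genes formed the list with the largest share of opposite changes. Of 30 measured, 20 rose and 1 fell with the ERG siRNAs, while 4 rose and 22 fell with WP1130. In all, 17 moved oppositely, falling with WP1130 (15 to 18 under every scaling), against 552 of 12744 over all genes. The list's median effect was 0.39 with the siRNAs and -0.51 with WP1130, and its median difference was -0.93 against -0.12 over all genes. Besides SLC45A3 and TMPRSS2, the potassium channel KCNMA1 rose by 0.99 and fell by 0.63, the kallikrein KLK2 rose by 0.47 and fell by 0.67, and FKBP5, a chaperone of steroid receptors, rose by 0.32 and fell by 0.61. DMSO arrays also exceeded NT arrays over this list: 16 of the 30 genes passed as higher and 3 as lower, with a median of 0.30. Among them DMSO was above NT for KCNMA1 by 0.64, and for KLK2. Of the 17 opposite genes, 4 had controls that did not differ, namely TMPRSS2, FKBP5, PLPP1 and SMS.

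The 3 androgen-induced genes that rose in both arms were ADAMTS1, the transcription factor MAF (1.80 with WP1130 and 0.57 with the siRNAs) and the elongation factor ELL2 (0.35 and 0.38). The DMSO minus NT difference was -0.64 for MAF and 0.33 for ELL2. The luminal keratins did not follow the androgen genes: KRT19 rose by 2.39 with WP1130 and 0.78 with the siRNAs, and KRT8 and KRT18 rose in both arms as well, though their siRNA arrays overlapped the NT arrays. DMSO was above NT by 0.78 for KRT19, as much as the siRNAs were, and by 0.33 for KRT8. Of 18 luminal genes 3 were alike and 7 opposite, 6 of them falling with WP1130.

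Genes that mark ERG-positive prostate tumours fell together more often than they parted. Of 31 measured, 19 fell with the siRNAs and 17 with WP1130, and 11 fell in both, against 600 of 12744 over all genes. Among all genes tested 9.58% fell with the siRNAs and 37.1% fell with WP1130, and 789 of 12744 moved oppositely. The list's medians were -0.36 and -0.26. DMSO was higher than NT for 5 of the 31 genes and lower for 9, and the controls did not differ for 5 of the 12 alike genes and 0 of the 4 opposite ones. PLA1A, a phospholipase, fell by 1.88 with the siRNAs and by 0.45 with WP1130, a difference of 1.43 ± 0.12, with a DMSO minus NT difference of -0.25. ARHGDIB parted: it stood at 10.38, 10.41 and 10.26 with NT, 7.95 to 8.53 with the siRNAs, 9.78, 9.74 and 9.78 with DMSO and 10.58, 10.60 and 10.67 with WP1130. Its siRNA arrays were lowest and its WP1130 arrays highest. ARHGDIB fell by 2.18 ± 0.09 with the siRNAs and rose by 0.85 ± 0.11 with WP1130, with DMSO below NT by a difference of -0.58. MMP9, a gelatinase undetected with DMSO, rose at least 2.09-fold with WP1130 and was at 0.00 with the siRNAs.

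Most of the cholesterol biosynthesis genes measured rose with the siRNAs, and some of them fell with WP1130. Of 22 measured, 14 rose and 0 fell with the siRNAs, 1 rose and 11 fell with WP1130, and 8 moved oppositely (13 with median scaling), against 552 of 12744 over all genes. For 7 of these 8 the controls did not differ. Over all genes 10.7% rose with the siRNAs and 37.1% fell with WP1130, or 47.9% of the most highly expressed ones. The list's median effect with WP1130 was -0.18, close to the -0.12 over all genes, and its median with the siRNAs was 0.36. SQLE, the squalene epoxidase, stood at 11.69, 11.54 and 11.62 with NT, 11.88 to 12.03 with the siRNAs, 11.50, 11.37 and 11.66 with DMSO and 10.63, 10.51 and 10.54 with WP1130. The controls overlapped, and the treated arrays lay above them in the knockdown arm and below in the inhibitor arm. SQLE rose by 0.33 ± 0.07 and fell by 0.95 ± 0.08, and a second probe gave 0.42 and -1.26.

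The thiolase ACAT2 rose by 0.61 and fell by 0.61, but its second probe gave -0.11 and -0.15. Mevalonate kinase MVK rose by 0.46 and fell by 0.71. A further 5 genes rose with the siRNAs only, among them the sterol desaturase SC5D (0.82 against 0.20 with WP1130) and the synthase HMGCS1 (0.61 against 0.21). DMSO was above NT for SC5D by 0.55. Under the other 5 scalings 0 to 3 genes of the list rose and 11 to 20 fell with WP1130. Over all genes 30.8 to 73.1% fell under these scalings.

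**Figure D3:**
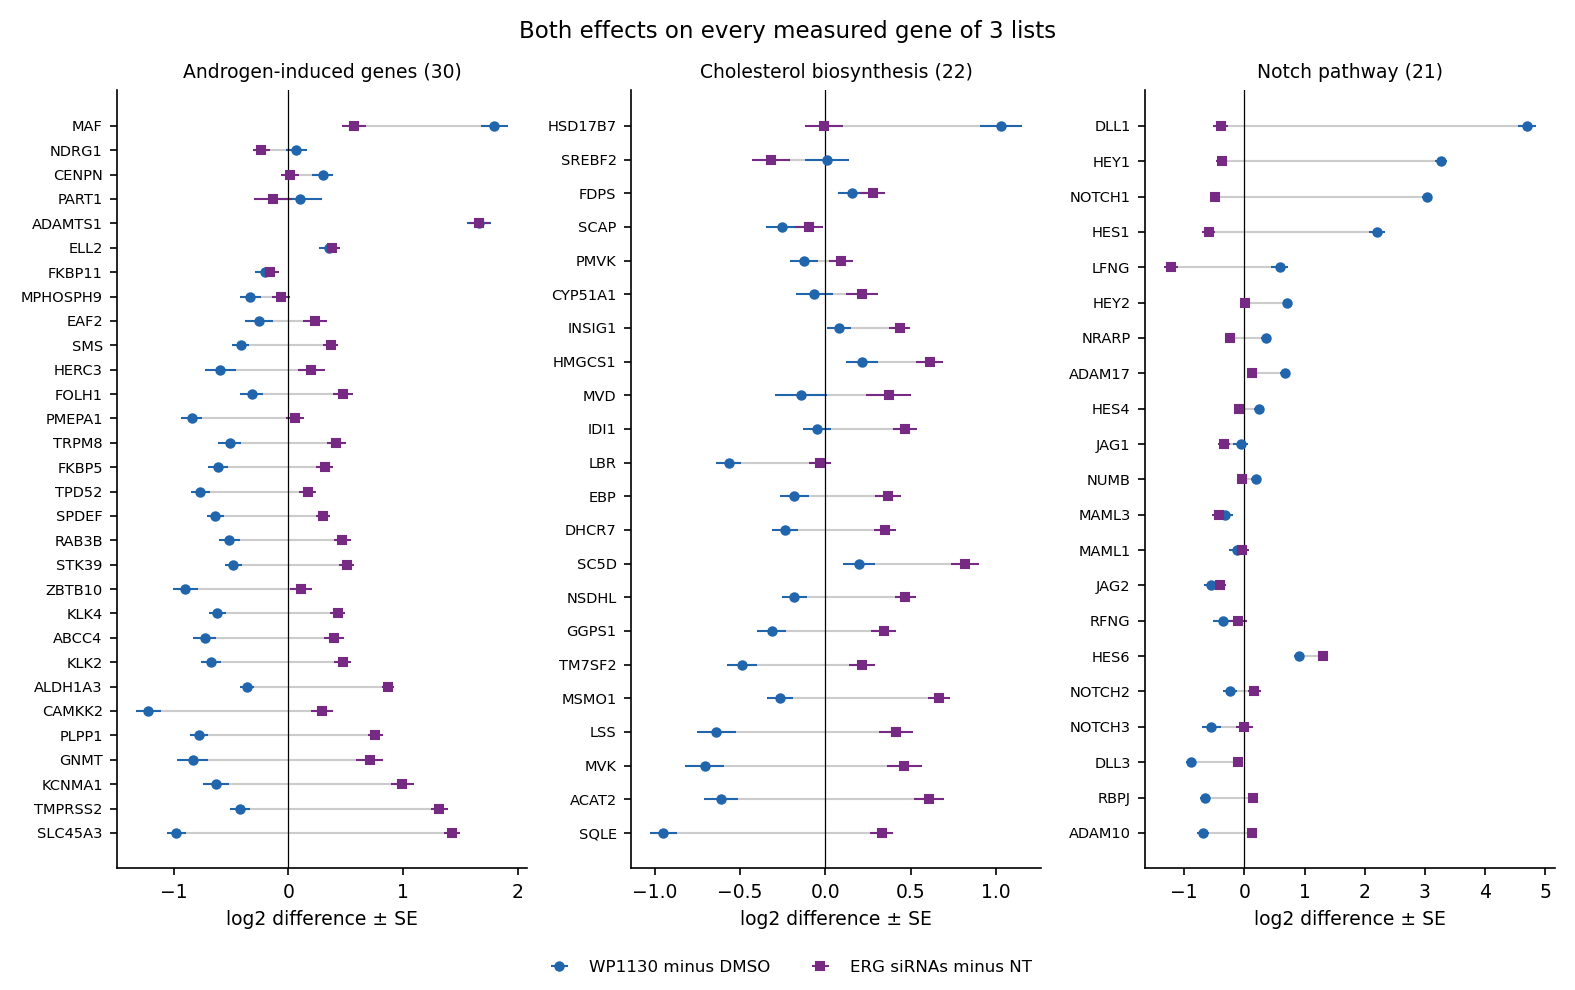
Effect of WP1130 (circles) and of the ERG siRNAs (squares) on every measured gene of 3 lists, as log2 difference ± SE on the horizontal axis, ordered by the difference of effects. Androgen-induced and cholesterol biosynthesis genes mostly have the squares right and the circles left of 0, and DLL1, HEY1, NOTCH1 and HES1 have the circles far to the right.

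Some Notch pathway genes took the reverse layout. Of 21 measured, 6 rose with WP1130 and fell with the siRNAs, and 0 did the opposite, against 237 and 552 of 12744 over all genes; 5 or 6 did so with the authors' values, with centring or without background correction, and 3 with median scaling or no scaling. The ligand gene DLL1 stood at 6.80, 6.73 and 6.27 with NT, 5.92 to 6.34 with the siRNAs, 6.49, 6.01 and 6.32 with DMSO and 10.88, 11.08 and 10.96 with WP1130. Its WP1130 arrays stood far above the rest, while the siRNA arrays overlapped the NT arrays. DLL1 rose by 4.70 ± 0.15 and fell by 0.40 ± 0.13 (adjusted p = 0.0389).

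The receptor gene NOTCH1 rose by 3.03 ± 0.08 with WP1130 and fell by 0.49 ± 0.07 with the siRNAs, without overlap in either arm. The target genes HEY1 and HES1 rose by 3.27 and 2.21 and fell by 0.37 and by 0.59; a second HEY1 probe gave 0.91 and 0.18. The siRNA arrays of HEY1 overlapped the NT arrays, and the DMSO minus NT differences were -0.53 for HEY1 and -0.59 for HES1. LFNG, a glycosyltransferase that modifies the receptor, moved by 0.59 and -1.22. HES6, which opposes HES1, was an exception: it rose by 0.91 with WP1130 and by 1.31 with the siRNAs, with a DMSO minus NT difference of -0.37. The ligand gene JAG2 and the co-activator MAML3 fell in both arms, but the WP1130 and DMSO arrays of MAML3 overlapped and its DMSO minus NT difference was -0.50. Controls did not differ for DLL1, NOTCH1, LFNG and NRARP among the 6 opposite genes. As a list, 10 genes rose and 6 fell with WP1130 (6 and 12 with median scaling, 5 and 12 with no scaling).

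Some cilium genes moved oppositely. Of 40 measured, 12 rose with the siRNAs and 1 fell, while 3 rose and 20 fell with WP1130, and 6 were opposite, all falling with WP1130. Over all genes 37.1% fell with WP1130 and 4.33% fell with it while rising with the siRNAs. With centring 8 genes of the list rose and 14 fell with WP1130, and with median scaling 10 were opposite. The transport protein IFT57 rose by 0.57 and fell by 0.51 with controls that did not differ. TTC8, another BBSome subunit, rose by 0.46 and fell by 0.88, with DMSO above NT by 0.54. Controls did not differ for 2 of the 6.

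Ribosome biogenesis genes fell in both arms in part. Of 42 measured, 37 fell with WP1130 and 21 with the siRNAs, 17 in both, against 600 of 12744 over all genes. The shared falls numbered 9 with median scaling and 6 with no scaling. A further 16 moved with WP1130 only, and the difference of effects passed for 27, of which 25 were lower with WP1130. For 13 of the 17 the controls did not differ. Their medians were -0.62 and -0.23. LYAR, a nucleolar protein, stood at 9.70, 9.78 and 9.58 with NT, 9.24 to 9.27 with the siRNAs, 9.52, 9.51 and 9.43 with DMSO and 8.94, 8.90 and 9.06 with WP1130. Each treated set lay below its own controls. LYAR fell by 0.51 and by 0.43 in the 2 arms, and the nuclease NOB1 fell by 0.62 and by 0.41. The DMSO minus NT difference of LYAR was -0.20, and the siRNA arrays of NOB1 overlapped the NT arrays. The effect of WP1130 was larger on others: POLR1B and RCL1 fell by 1.44 and by 1.42 with WP1130, against -0.15 and -0.09 with the siRNAs. WDR74 rose with WP1130 (1.43), with a DMSO minus NT difference of -0.83. MYC, a driver of these genes, fell by 1.67 ± 0.09 with WP1130 and by 0.47 ± 0.08 with the siRNAs, a difference of -1.19 ± 0.12.

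Some DNA replication genes fell in both arms as well. Of 44 measured, 29 fell with WP1130 and 22 with the siRNAs, 16 in both (15 to 21 under every scaling). Among the 16 were the 6 subunits MCM2 to MCM7 of the replicative helicase. Over all genes 37.1% fell with WP1130, 9.58% fell with the siRNAs and 600 of 12744 fell in both. CDCA7 fell by 1.09 and by 0.57 and UHRF1, which maintains DNA methylation, fell by 0.67 and by 0.52. DMSO was lower than NT for 21 of the 44 genes, and for 6 of the 16 shared falls the controls did not differ. Mitosis genes differed between the arms: 25 of 48 fell with the siRNAs and 0 rose, while 15 rose and 13 fell with WP1130. The WP1130 rises and falls were 13 and 15 with centring, 1 and 34 with median scaling, and 1 and 40 with no scaling. Over all genes 21.9% rose and 37.1% fell with WP1130 in the main setting. The ubiquitin-conjugating enzyme UBE2C rose by 1.07 with WP1130 and fell by 0.28 with the siRNAs, CDC20, an activator of the anaphase complex, moved by 0.54 and -0.27, and the kinetochore gene CENPF fell in both arms, by 0.62 and by 0.47. DMSO was lower than NT for all 48 mitosis genes, with a median of -0.81, whereas it was lower for 11.6% of all genes.

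The stress programs moved mainly with the inhibitor. Genes detected only with WP1130 could enter these lists only through the group in which they were high. Their part in the counts below was not tested. Over all genes 21.9% rose and 37.1% fell with WP1130, and 10.7% rose and 9.58% fell with the siRNAs. Of 40 heat shock chaperone genes 32 rose with WP1130 and 3 fell, with a median of 1.06, while 5 rose and 4 fell with the siRNAs, with a median of -0.02. The controls differed for 0 of the 40. The rise with WP1130 alone passed for 22 of them. The small heat shock protein gene HSPB1 rose in both arms, by 5.80 ± 0.09 and 0.60 ± 0.08, while the chaperonin subunit TCP1 and the chaperone HSPA4 rose with WP1130 (1.71 and 0.60) and fell with the siRNAs (by 0.21 and by 0.40). In all 4 chaperone genes were opposite in this way, and 0 were with median scaling or no scaling. Of 29 immediate early genes 25 rose and 1, MYC, fell with WP1130, with a median of 3.10 against 0.00 with the siRNAs. FOS rose at least 42.8-fold, and DUSP5, a phosphatase of ERK kinases, rose by 4.36 with WP1130 and fell by 0.56 with the siRNAs.

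Among genes of the integrated stress response 19 of 32 rose and 9 fell with WP1130, and 1 rose and 7 fell with the siRNAs. SLC7A5, an amino acid transporter gene, rose at least 17.3-fold with WP1130. Of 28 oxidative stress genes 17 rose and 5 fell, of 21 inflammatory genes 13 rose and 0 fell, and of 38 proteasome genes 18 rose and 7 fell with WP1130. With the siRNAs 1, 0 and 4 rose and 2, 1 and 0 fell. Over all genes 21.9% rose and 37.1% fell with WP1130, and these shares were 11.5 and 61.6% with median scaling. With median scaling the WP1130 counts were 12 and 14, 13 and 10, 11 and 4, and 2 and 21 for these 4 lists in the order given, so the direction of the first and the last turned; with no scaling that of oxidative stress genes turned too (10 and 12). Of 55 oxidative phosphorylation genes 30 fell and 0 rose with WP1130, against falls of 37.1% of all genes and 47.9% of the most highly expressed ones, and 2 rose and 3 fell with the siRNAs. The falls with WP1130 numbered 55 with median scaling or no scaling and 22 with centring.

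**Figure D4:**
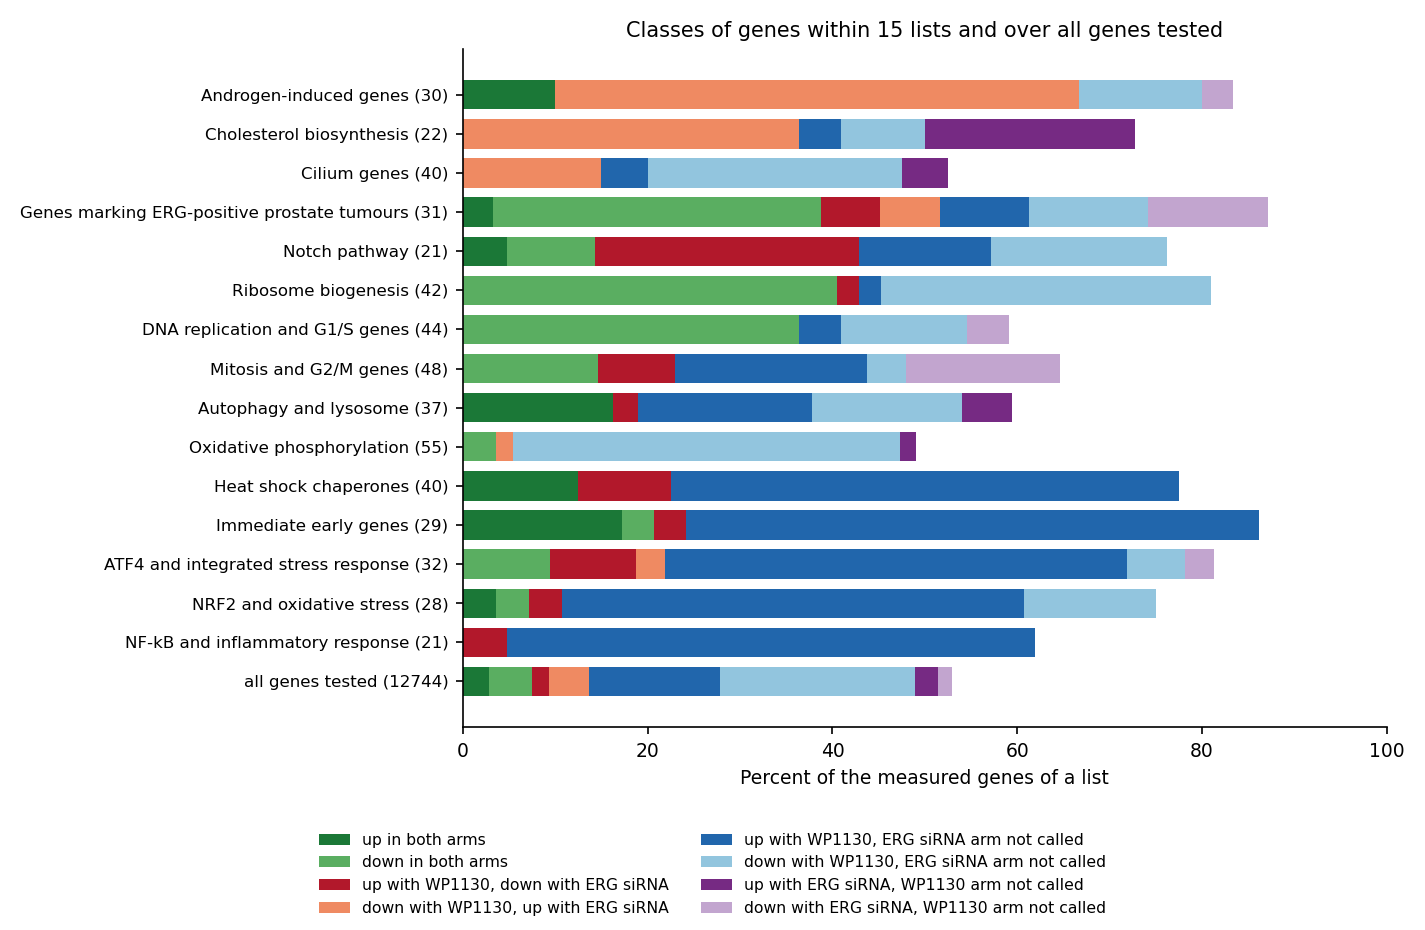
Share of the measured genes of 15 lists, and of all genes tested, that fell in each class of the layout (horizontal axis, percent; number of measured genes in parentheses). Androgen-induced and cholesterol genes have the widest orange bands, and ribosome biogenesis and DNA replication genes the widest light green bands. Immediate early, inflammatory and heat shock genes have the widest dark blue bands.

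Over all 12744 genes 957 were alike and 789 opposite, and the counts of the remaining lists can be read against these. Of 37 autophagy and lysosome genes 6 rose in both arms, among them GABARAPL1 (0.99 and 0.35, its siRNA arrays overlapping NT), although with median scaling 4 rose and 25 fell with WP1130. Of 26 Wnt genes 3 fell in both arms and 3 were opposite, while WNT3 and the target gene AXIN2 rose with WP1130 alone (2.02 and 1.65). Of 20 p53 target genes 1 rose and 2 fell in both: the cell cycle inhibitor CDKN1A rose by 2.67 and 0.50, and the death receptor FAS was one of the falls (-0.45 and -0.85). Their DMSO minus NT differences were 0.29 and -0.42. Of 19 ETS factors 1, ERG itself, was alike and 4 were opposite; ELF3 and ELF4 rose with WP1130 alone, by 2.26 and at least 3.13-fold, and DMSO was above NT by 0.29 for ELF3. Of 37 hypoxia and glycolysis genes 7 were alike and 3 opposite. Counts of alike and opposite genes were 4 and 0 of 57 for ribosomal proteins, 2 and 0 of 40 for splicing factors, 2 and 0 of 28 for ubiquitin genes, 2 and 1 of 24 for apoptosis regulators, 2 and 4 of 25 for interferon genes, 2 and 1 of 26 for endoplasmic reticulum chaperones, and 0 and 3 of 19 for fatty acid synthesis. They were 1 and 2 of 9 for metallothioneins, 0 and 1 of 9 for neuroendocrine genes, 3 and 1 of 6 for fibroblast genes, 0 and 1 of 5 for blood cell genes, 0 and 1 of 3 for endothelial genes and 0 and 0 of 3 for basal genes. The direction with WP1130 turned under another scaling for several of these lists. With centring the rises and falls went from 3 and 17 to 27 and 9 for ribosomal proteins, from 5 and 6 to 7 and 4 for endoplasmic reticulum chaperones, and from 7 and 9 to 7 and 5 for p53 targets. With median scaling they went from 11 and 4 to 5 and 10 for interferon genes and from 7 and 5 to 2 and 13 for apoptosis regulators. Rises and falls were level, at 6 and 6 for ETS factors and 9 and 9 for ubiquitin genes, and became 4 and 11, and 5 and 18, with median scaling.

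Read from the knockdown side, genes that moved with the siRNAs went both ways with the inhibitor. Of the 1221 genes that fell with the siRNAs 49.1% fell and 19.4% rose with WP1130, and of the 1359 that rose 26.3% rose and 40.6% fell, against 37.1% falls and 21.9% rises over all genes. Highly expressed genes fell more often with WP1130: with genes split in 3 by level, from low to high, 32.2, 47.2 and 56.7% of the genes that fell with the siRNAs fell, against 21.2, 42.3 and 47.9% of all genes. Of the 41 genes that fell at least 2-fold with the siRNAs 15 fell and 18 rose with WP1130, and of the 56 that rose as much 19 rose and 26 fell.

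Read from the other side, 907 genes rose at least 2-fold with WP1130, of which 11.8% rose and 7.5% fell with the siRNAs. Of the 197 that fell as much 13.2% rose and 20.8% fell, against 10.7 and 9.58% over all genes. Across the 12744 genes the 2 effects had a Pearson correlation of 0.04 and a Spearman correlation of 0.06, and across the 1746 genes called in both arms these were 0.08 and 0.09. Genes are not independent replicates, and all points share the same arrays.

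Motif shares of the promoter windows differed between classes, and are given as a description with no test. Windows of the same length were found for 10131 of the tested genes, and both strands were searched for GAANNTTC (heat shock element core), TGACNNNGC (antioxidant response element core), TGANTCA (AP-1), TGATGNAA (ATF4/CHOP element), CCGGAAGT (an ETS site, which contains the core GGAA) and CACGTG (E-box). The heat shock core stood in 8.13% of the windows of genes that rose in both arms and 6.52% of those that rose with WP1130 alone, against 4.77% of all tested. AP-1 letters stood in 7.58% of the latter against 4.63%, and the ATF4/CHOP letters in 3.12% against 1.81%. Over all 27305 RefSeq windows the heat shock, AP-1 and ATF4/CHOP shares were 6.87, 7.76 and 3.67%. Those of genes that rose with WP1130 alone thus exceeded the tested genes but not all windows. The ETS site stood in 2.22% of the windows of genes that rose with WP1130 and fell with the siRNAs. It stood in 9.62% of those that fell with WP1130 alone, against 8.18% of all tested. The E-box stood in 15.1% of those that fell in both arms and in 3.33% of those that rose with WP1130 and fell with the siRNAs, against 10.1%. The antioxidant core stood in 13.5 to 16.3% of each class. The 8 windows printed for the classes moved by both arms held 0 of the 6 motifs.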

How the data were processed

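RNA of VCaP cells was measured on 15 Illumina HT-12 arrays, 3 in each of 5 groups taken from the sample labels. The deposited table holds the authors' raw probe intensity and a detection p-value per array, per the file headers; the submitters' processing notes name GenomeStudio. The deposited series matrix holds the authors' processed values, which were used on the log2 scale as an alternative; the sources used here do not say how these were normalised.

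Intensities were background-corrected with neqc in limma 3.58.1 (R 4.3.3), which fits on the 770 negative control beads through the detection p-values, with an offset of 16, then quantile-normalised. Probes with a detection p under 0.05 on at least 3 arrays were kept. Symbols came from the platform annotation: 30113 probes had 1 symbol, 8 several and 17201 were not listed. The probe with the highest mean stood for a gene, and 3351 genes had other probes that passed. One fit over the 5 groups, with 10 residual degrees of freedom and eBayes, gave both arms, their difference and the difference of the controls, with p-values adjusted by Benjamini and Hochberg's method across the 12744 genes and called under 0.05. The median SE was 0.1 in the WP1130 arm, 0.087 in the siRNA arm and 0.13 for their difference; 3 arrays per group limit the precision. The steps were tested on simulated data.

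Folds written "at least" set a group against the lowest detected signal where the other group was below background on all its arrays. A signed effect of 2 probes can differ, as given beside the gene. Alternatives varied the scaling, background, filter, probe choice, threshold, siRNA, replicate block and arrays used. Genes named by class had treated and control arrays that did not overlap in each arm called. Named genes led their class by the smaller of the 2 effects, their arm or the difference, or their list by the difference or by shared effect; ERG, TMPRSS2 and the deubiquitinase genes were always named. Genes named beside them, such as LFNG, SC5D, HMGCS1, IFT57, MAML3 and NRARP, were chosen after their values were seen. The comparison and the gene lists were chosen with earlier results of these data known.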

Additional observations from a re-analysis of the deposited data

Results flagged for a closer look

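RLN1 was the only gene named here for which the 2 ERG siRNAs differed by the test. Its log2 intensity was 6.78, 7.01 and 6.80 with siERG1 and 5.74, 6.13 and 5.84 with siERG2, so that siERG2 minus siERG1 was -0.96 (limma adjusted p = 0.00258, 3 arrays each). RLN1 was undetected on the NT arrays, so its rise over NT has no exact size, and its signal cannot be told apart from that of the near-identical copy RLN2 here.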

How the results depend on the processing

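The 5 counts of the layout are given in the order: genes whose difference of effects passed (6466), genes moved alike (957), moved oppositely (789), with WP1130 only (4494) and with the ERG siRNAs only (513). Median scaling moved the alike, WP1130-only and siRNA-only counts to 558, 7035 and 276, and no scaling moved them to 504, 8262 and 175. With siERG1 alone as the knockdown arm 587 genes were alike. At an adjusted p under 0.01 the alike, opposite and siRNA-only counts were 482, 415 and 339. A minimum of 1.5-fold gave 3424, 70, 73, 2378 and 164, and a minimum of 2-fold, chosen after seeing the data, gave 1318, 13, 13, 929 and 51. Keeping only genes whose controls did not differ, also chosen after seeing the data, left 627 alike, 383 opposite and 273 siRNA-only. Leaving out 1 array gave 5988 to 6492, 686 to 997, 574 to 831, 4096 to 4553 and 375 to 528. Of the genes, 461 of 957 alike and 387 of 789 opposite kept their class whichever array was left out. The difference of UCHL5, not past the threshold in the main setting, was -0.58 with median scaling, -0.75 with no scaling, -0.011 with centring, and from -0.015 without WP1130 replicate 3 to 0.173 without WP1130 replicate 1. With the replicate number as a block (replicate block) the counts were 6471, 947, 784, 4503 and 511. Same-numbered arrays deviated together only weakly (correlations of -0.06 to 0.139). The labels do not state pairing, and weak correlations among 3 arrays per group cannot exclude it. The cause of these shifts was not tested, other than fewer genes or arrays entering a count. Dim probes and the lower intensity of the WP1130 arrays limit what can be said of small falls.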
